A study of Homo sapiens with 9 samples.

Results

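The genes studied here are the transcriptional co-activators YAP1 and WWTR1 (which encodes TAZ), the DNA-binding factors TEAD1, TEAD2, TEAD3 and TEAD4, the vestigial-like cofactors VGLL3 and VGLL4, and the secreted proteins CCN1 and CCN2. They were chosen by gene symbol, with earlier results of these data known. All 10 were found among the 42717 genes of the count table. Their mRNA was compared between S2-007, S2-020 and S2-028, all derived from the human pancreatic ductal adenocarcinoma cell line SUIT-2, with 3 libraries per line and 9 in all. The labels name no treatment, and all lines were grown in DMEM with fetal bovine serum. The study describes S2-007 as a line with maspin, a serpin, in the nucleus and cytoplasm (panMaspin), S2-028 as a line with maspin in the cytoplasm (cytMaspin), and S2-020 as a line in which maspin protein was weak. Each maspin state is represented by 1 subline, so it cannot be told apart from any other property of that subline. The labels do not say whether the libraries of a line came from separate cultures, and p-values measure only the spread between these libraries.

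YAP and TAZ do not bind DNA themselves. When the kinases of the Hippo pathway are inactive they enter the nucleus, bind TEAD factors and activate genes of growth, cytoskeleton and matrix, and when LATS kinases phosphorylate them they are held in the cytoplasm. Vestigial-like proteins bind the same surface of TEAD factors, and VGLL4 is known to compete with YAP there. CCN1 and CCN2 are matricellular proteins whose mRNAs are commonly used as readouts of YAP and TAZ in epithelial tumour cells. The counts measure mRNA, and the phosphorylation and location of the YAP and TAZ proteins were not measured in these libraries.

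The total count was between 60328748 and 86253923 per library, with S2-028 the shallowest line. Levels are given as CPM (counts scaled to library size, TMM-normalized over the 9 libraries). Differences are log2 fold changes by edgeR's quasi-likelihood test, adjusted by Benjamini-Hochberg over every gene tested in a comparison. A value after ± is the standard error for a log2 fold change and the SD of 3 libraries for a level. A gene was called at an adjusted p under 0.05 where it also differed by 1.5-fold or more. All 6 epithelial markers examined (EPCAM, CDH1, KRT7, KRT8, KRT18 and KRT19) were above 1 CPM in every library. Their summed level was 4259 to 5398 CPM in S2-020, 9705 to 10055 in S2-007 and 14988 to 17849 in S2-028. The 5 fibroblast markers summed to at most 5.68 CPM in any library and the 3 endothelial markers to at most 9.73. The 4 leukocyte markers summed to 40.7 to 44.4 CPM in S2-007, 9.12 to 10.3 in S2-020 and 11.2 to 12.4 in S2-028. Most of this was CD68, a lysosomal protein gene, which was called lower in both S2-028 (-1.98) and S2-020 (-2.42) against S2-007, and its part in the comparisons with S2-007 was not tested.

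The estimated differences of YAP1 and WWTR1 were under 1.5-fold in every comparison, whereas TEAD factors, VGLL3 and the CCN genes passed that threshold in some. All 10 genes passed the expression filter in each comparison. In S2-028 against S2-007, 4 of the 10 were called (CCN1, TEAD1, CCN2 and TEAD2), all of them higher in S2-028, and 18.4% of all genes tested were called. In S2-020 against S2-007, 7 of the 10 were called against 21.6% of all genes. In S2-020, TEAD1, TEAD2, TEAD4, CCN1 and CCN2 were higher and TEAD3 and VGLL3 were lower. In S2-028 against S2-020, 4 of the 10 were called against 22.2% of all genes, with VGLL3 and TEAD3 higher and TEAD4 and CCN2 lower in S2-028. Over the 10 genes the median log2 difference was 0.50, 0.61 and -0.02 in the same order of comparisons, where the medians over all genes tested were 0.00, -0.05 and 0.02. The libraries of the lines compared did not overlap for 8, 10 and 6 of the 10 genes, against 43.7%, 48.8% and 48.6% of all genes tested. An adjusted p under 0.05 at any fold was reached by 7, 10 and 6 of the 10, against 33.9%, 40.2% and 40.4% of all genes. With a library left out this was lost for TEAD4 in S2-028 against S2-007 (adjusted p = 0.0511 without S2-007 replicate 2 and 0.0923 without S2-007 replicate 3) and for VGLL4 in S2-020 against S2-007 (0.06 without S2-007 replicate 1 and 0.0565 without S2-007 replicate 3). The comparisons share libraries, so their counts are not independent of each other. The mean log2 CPM of the 10 genes was between 3.25 and 8.26, whereas 10524 genes of the whole table reached 3. The shares of all genes thus include many genes with fewer reads. They were not matched for level, here or beside the gene lists below. In bulk libraries, fewer cells with an mRNA and less of it per cell cannot be told apart.

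**Figure D1:**
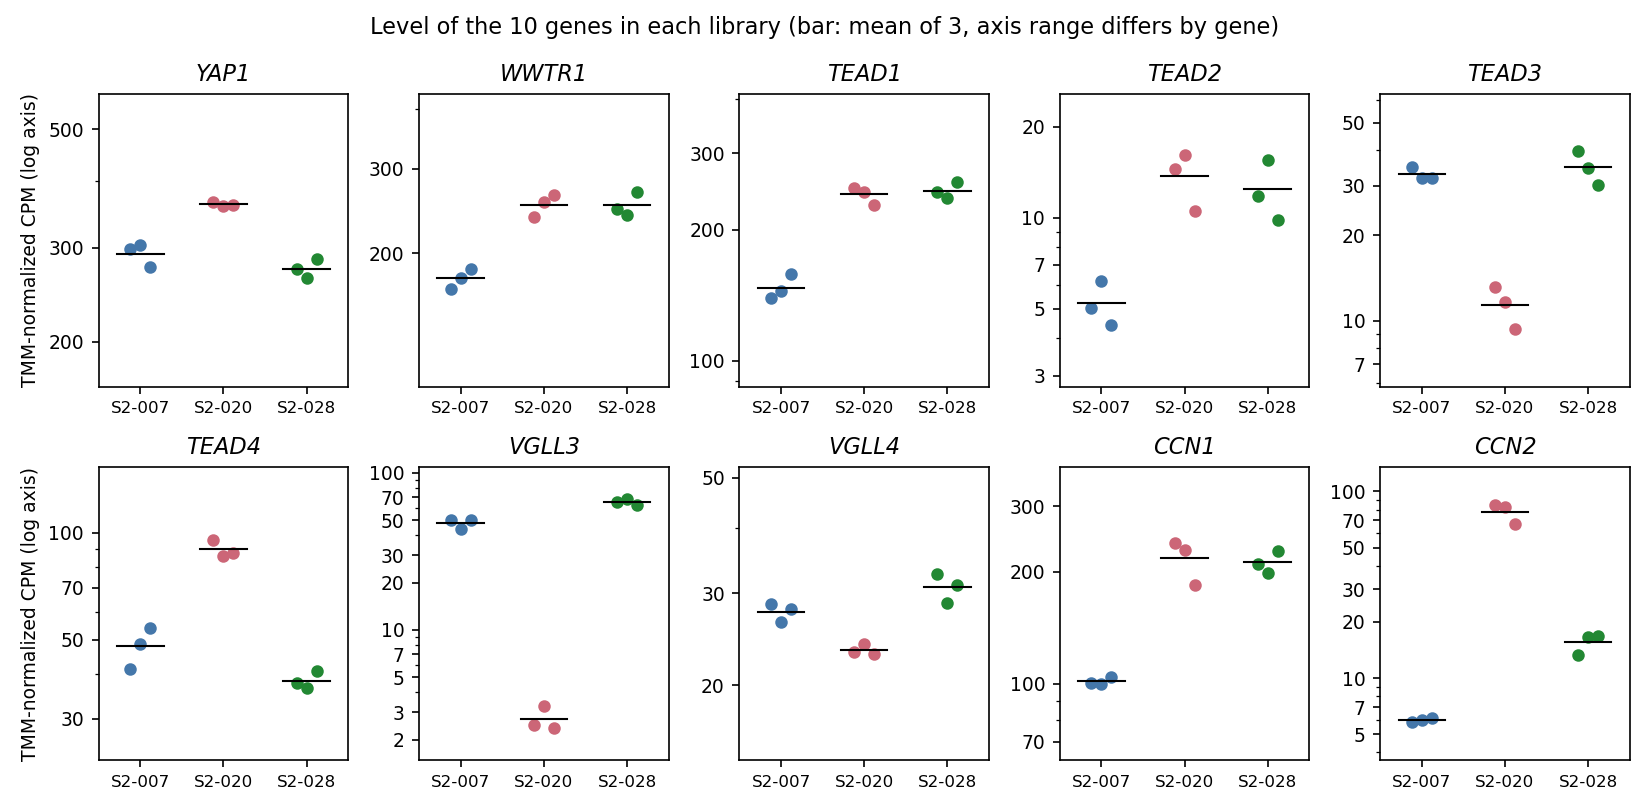
Level of each of the 10 genes in TMM-normalized CPM on a log axis, with a point per library and a bar at the mean of the 3 libraries of a line. VGLL3 lies between 2.37 and 3.29 CPM in S2-020 and at or above 44.01 CPM in the other lines, and CCN2 is highest in S2-020.

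YAP1 (NCBI gene 10413) encodes YAP and spans chr11:102110447-102233424 (GRCh38.p14, as for all positions given). The 3 S2-007 libraries had 298, 304 and 275 CPM, the S2-020 libraries 365, 359 and 362 and the S2-028 libraries 273, 263 and 286. The S2-020 libraries were above all others, and those of S2-007 and S2-028 overlapped. YAP1 had a log2 fold change of 0.31 ± 0.0505 (adjusted p = 4.61e-05) in S2-020 against S2-007, a 1.24-fold difference that was under the fold threshold. In S2-028 against S2-020 the value was -0.41 ± 0.0481 (adjusted p = 8.66e-07). Between S2-028 and S2-007 no difference was shown, with a log2 fold change of -0.07 and a 95% interval of -0.19 to 0.06 (adjusted p = 0.462).

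WWTR1 (NCBI gene 25937), at chr3:149517235-149724788, encodes TAZ, the paralog of YAP. Its level was 169, 178 and 185 CPM in S2-007, 238, 255 and 264 in S2-020 and 248, 239.7 and 269 in S2-028. S2-007 was the low line, without overlap with the others, whereas the libraries of S2-020 and S2-028 overlapped. The log2 fold change against S2-007 was 0.51 ± 0.0551 (adjusted p = 2.16e-07) in S2-020 and 0.53 ± 0.0618 (adjusted p = 4.52e-07) in S2-028, both just under the fold threshold. The 95% intervals, 0.39 to 0.62 in S2-020 and 0.40 to 0.66 in S2-028, reached past that threshold. S2-028 and S2-020 differed by -0.01 with a 95% interval of -0.13 to 0.11. Per kb of transcript, which allows levels of different genes to be compared, YAP1 was at 54.2 ± 2.79 CPM per kb and WWTR1 at 35.2 ± 1.62 in S2-007. In S2-028 the levels were 50.8 ± 2.09 and 50.05 ± 2.97. WWTR1 thus made up 39.4 ± 2.18% of the YAP1 and WWTR1 mRNA in S2-007, 42.8 ± 1.45% in S2-020 and 49.6 ± 0.498% in S2-028, and the S2-028 libraries did not overlap with the others. The length used for each gene was that of its canonical GENCODE transcript, which may differ from the transcripts that the lines express.

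**Figure D2:**
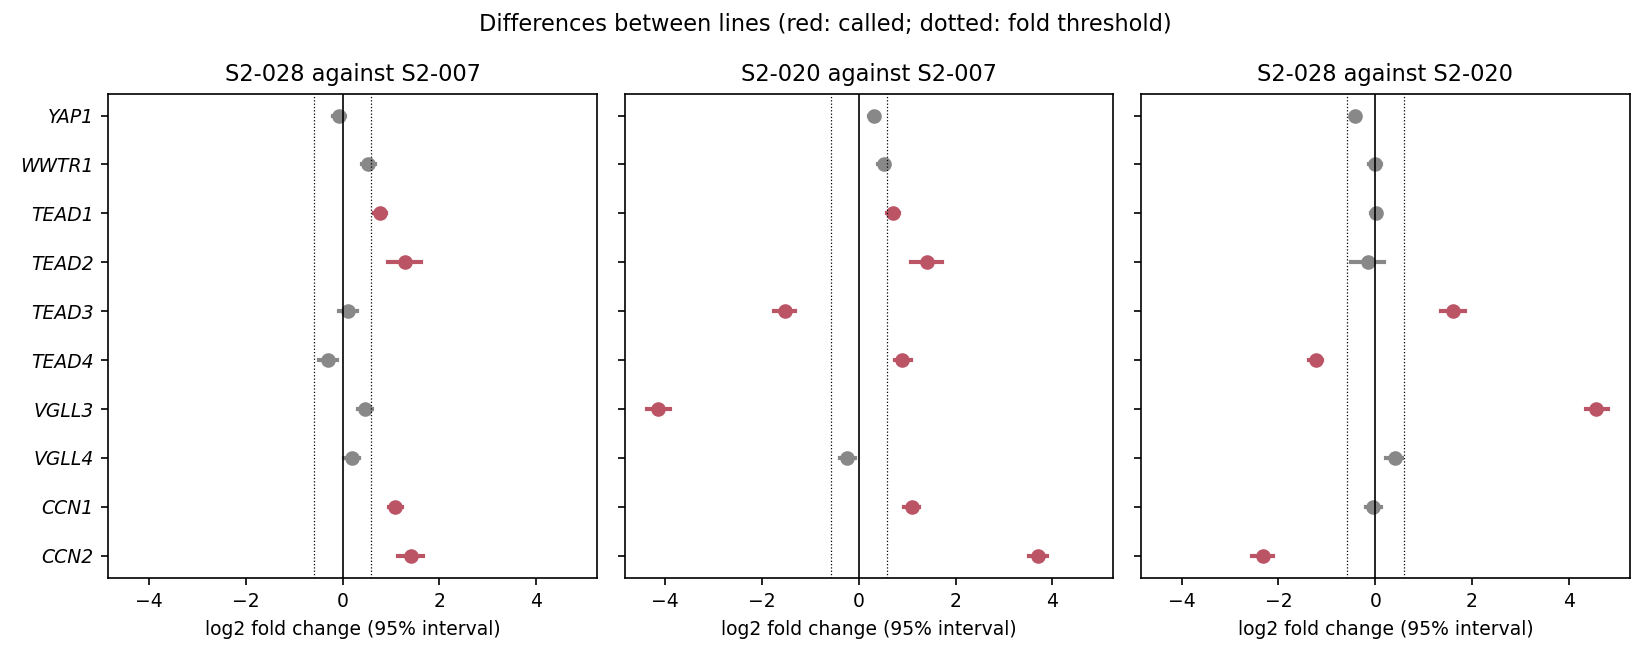
Log2 fold change of the 10 genes in each comparison, with bars for the 95% interval, red for genes called and grey for the others. YAP1, WWTR1 and VGLL4 stay inside the dotted fold threshold in each panel, and VGLL3 and CCN2 lie farthest from 0 in both comparisons with S2-020.

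The TEAD factors, through which YAP and TAZ reach DNA, differed between the lines both in level and in make-up. In S2-020 all 4 genes were called against S2-007, 3 higher and 1 lower. In S2-028 against S2-007, TEAD1 and TEAD2 were called higher, and in S2-028 against S2-020, TEAD3 was called higher and TEAD4 lower. TEAD1 (NCBI gene 7003), at chr11:12674421-12944737, had 139.6, 144 and 158 CPM in S2-007, 250.2, 245 and 229 in S2-020 and 245, 237 and 257 in S2-028. The S2-007 libraries were lower than all others, and those of S2-020 and S2-028 overlapped. The log2 fold change was 0.77 ± 0.0625 (adjusted p = 2.21e-09) in S2-028 and 0.71 ± 0.0573 (adjusted p = 3.12e-09) in S2-020, each against S2-007, and 0.02 between S2-028 and S2-020 (95% interval -0.09 to 0.13). TEAD2 (NCBI gene 8463), at chr19:49340595-49362416, was the TEAD gene with the fewest reads, at 5.04, 6.19 and 4.42 CPM in S2-007, 14.6, 16.1 and 10.5 in S2-020 and 11.8, 15.6 and 9.84 in S2-028. These levels rest on 326 to 1358 counts per library. TEAD2 was also lowest in S2-007, with log2 fold changes of 1.40 ± 0.154 (adjusted p = 2.74e-07) in S2-020 and 1.28 ± 0.164 (adjusted p = 1.88e-06) in S2-028 against S2-007, and -0.15 between S2-028 and S2-020 (95% interval -0.49 to 0.18).

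TEAD3 (NCBI gene 7005), at chr6:35473597-35497079, was low in S2-020 alone. It had 34.9, 31.9 and 31.8 CPM in S2-007, 13.1, 11.6 and 9.35 in S2-020 and 39.7, 34.7 and 30.2 in S2-028. The S2-020 libraries lay under all others, and those of S2-007 and S2-028 overlapped. TEAD3 fell 2.89-fold in S2-020 against S2-007, with a log2 fold change of -1.53 ± 0.103 (adjusted p = 1.89e-10), and was 3.05-fold higher in S2-028 than in S2-020, at 1.61 ± 0.117 (adjusted p = 9.47e-10). Between S2-028 and S2-007 the difference was 0.11 (95% interval -0.08 to 0.30). TEAD4 (NCBI gene 7004), at chr12:2959397-3040676, was highest in S2-020. Its level was 41.4, 48.8 and 53.98 CPM in S2-007, 95.8, 85.8 and 87.8 in S2-020 and 37.7, 36.7 and 40.8 in S2-028, with no overlap between any pair of lines. TEAD4 rose 1.87-fold in S2-020 against S2-007, with a log2 fold change of 0.90 ± 0.0778 (adjusted p = 8.37e-09), and was lower in S2-028 than in S2-020, at -1.23 ± 0.0654 (adjusted p = 8.42e-12). In S2-028 against S2-007 the log2 fold change of -0.30 ± 0.0862 (adjusted p = 0.00969) was under the fold threshold.

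Per kb of transcript, the 4 TEAD genes summed to 57.2 ± 4.02 CPM per kb in S2-007, 66.00 ± 0.724 in S2-028 and 88.3 ± 5.07 in S2-020. TEAD4 and TEAD1 together were the larger part in every library. TEAD4 made up 49.01 ± 3.10% of the sum in S2-007, 59.5 ± 2.04% in S2-020 and 34.02 ± 1.91% in S2-028. TEAD1 made up 27.4 ± 0.632%, 29.04 ± 0.670% and 39.6 ± 1.64% in the same order. TEAD1 was therefore above TEAD4 per kb in each S2-028 library and under it in each library of the other lines. TEAD3 made up 19.4 ± 2.40% in S2-007 and 17.7 ± 2.25% in S2-028 but 4.30 ± 0.493% in S2-020. TEAD2 stayed between 3.33% and 10.95% in all 9 libraries.

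**Figure D3:**
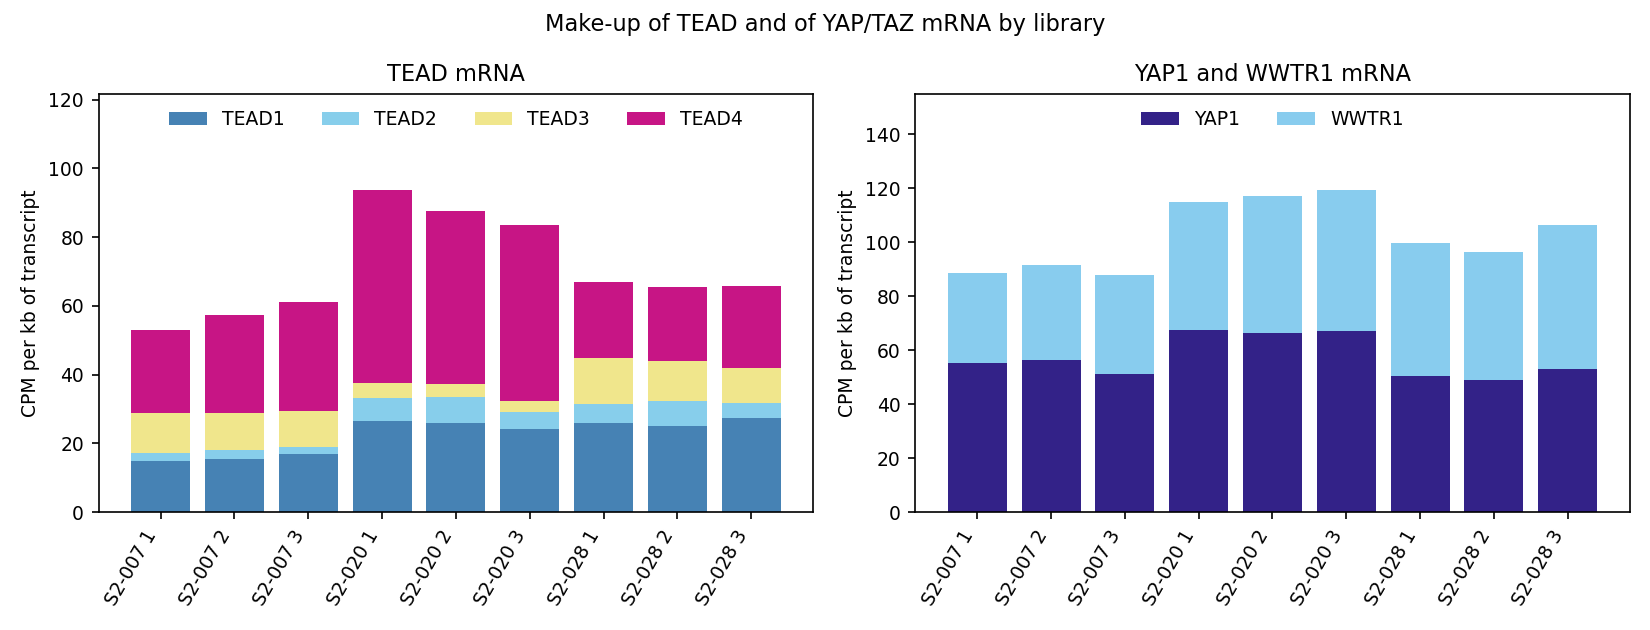
Stacked levels of the TEAD genes (left) and of YAP1 and WWTR1 (right) in each library, in CPM per kb of canonical transcript. The S2-020 bars of the left panel are the tallest, with the widest TEAD4 part and a thin TEAD3 part, and in S2-028 the YAP1 and WWTR1 parts are close to equal.

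Of VGLL3 and VGLL4, VGLL3 was the one that was called. VGLL3 (NCBI gene 389136), a TEAD-binding cofactor at chr3:86937973-86991149, had 50.2, 44.01 and 50.5 CPM in S2-007, 2.48, 3.29 and 2.37 in S2-020 and 64.99, 68.2 and 62.8 in S2-028. S2-020 was the line that nearly lacked it, and the libraries of S2-028 lay above those of S2-007. The S2-020 level rests on 179, 277 and 172 counts, well above the floor of 3 counts, so the mRNA was low but detected. VGLL3 fell 17.7-fold in S2-020 against S2-007, with a log2 fold change of -4.14 ± 0.113 (adjusted p = 1.59e-16). It was 23.8-fold higher in S2-028 than in S2-020, at 4.57 ± 0.109 (adjusted p = 5.41e-17). In S2-028 against S2-007 the value of 0.46 ± 0.0706 (adjusted p = 1.71e-05) was under the fold threshold. The fall of VGLL3 in S2-020 went with lower epithelial markers in the same comparison, of which 5 of 6 were called lower, where 12.1% of all genes tested were. Among them, CDH1, the gene of E-cadherin, was at 4.50 ± 0.278 CPM in S2-020 and 54.96 ± 2.97 in S2-007. The part of these markers in the VGLL3 result was not tested.

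VGLL4 (NCBI gene 9686), the competitor of YAP for TEAD factors, lies at chr3:11556067-11721815 and passed the fold threshold in no comparison. It had 28.6, 26.5 and 27.9 CPM in S2-007, 23.1, 23.98 and 23.01 in S2-020 and 32.7, 28.8 and 31.2 in S2-028. The lines did not overlap, with S2-020 lowest and S2-028 highest. The log2 fold change was 0.40 ± 0.0781 (adjusted p = 3.43e-04) in S2-028 against S2-020, -0.24 ± 0.0732 (adjusted p = 0.0111) in S2-020 against S2-007 and 0.19 ± 0.0807 (adjusted p = 0.0877) in S2-028 against S2-007. In GENCODE, 23.84% of the exon bases of VGLL4 lie opposite another gene, mainly ATG7, an autophagy gene. ATG7 had log2 fold changes of 0.57, -0.22 and 0.39 in the same order, and since the strand setting of the counting is not given in the sources used here, reads of VGLL4 and ATG7 may not have been kept apart. Per kb, VGLL3 was 38.6 ± 0.994% of the summed VGLL3 and VGLL4 level in S2-007 and 43.4 ± 2.42% in S2-028, but 4.02 ± 0.620% in S2-020.

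The further vestigial-like genes VGLL1 and VGLL2 are not among the 10 genes but bind TEAD factors as well. VGLL1 had 18.9, 20.4 and 20.9 CPM in S2-028, 4, 0 and 2 counts in the S2-007 libraries and no count in any S2-020 library. Against the floor of 3 counts per library, VGLL1 was at least 483-fold higher in S2-028 than in S2-020. VGLL2 had at most 8 counts in any library and was not tested. The line with the highest VGLL3 level was thus also the line with VGLL1, and S2-020 was low in VGLL3 and had no VGLL1 count.

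CCN1 and CCN2, the target genes of the group, were both lowest in S2-007 but did not follow each other in the other lines. CCN1 (CYR61, NCBI gene 3491), at chr1:85580761-85583950, had 100.4, 99.8 and 104 CPM in S2-007, 239, 229 and 184 in S2-020 and 210.3, 199 and 228 in S2-028. S2-007 was lower without overlap, and S2-020 and S2-028 overlapped. CCN1 rose 2.14-fold in S2-020, with a log2 fold change of 1.10 ± 0.0735 (adjusted p = 1.83e-10), and 2.13-fold in S2-028, with 1.09 ± 0.0628 (adjusted p = 8.69e-12). Between S2-028 and S2-020 the difference was -0.04, with a 95% interval of -0.20 to 0.12.

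CCN2 (CTGF, NCBI gene 1490), at chr6:131948176-131951372, had 5.82, 5.96 and 6.15 CPM in S2-007, 84.4, 82.1 and 66.7 in S2-020 and 13.3, 16.7 and 16.8 in S2-028. No pair of lines overlapped, with S2-020 far above S2-028 and S2-028 above S2-007. The log2 fold change was 3.70 ± 0.0912 (adjusted p = 3.37e-17) in S2-020 against S2-007, a 13.00-fold rise, and 1.41 ± 0.125 (adjusted p = 8.00e-09) in S2-028 against S2-007, a 2.66-fold rise. CCN2 was 5.01-fold lower in S2-028 than in S2-020, with a log2 fold change of -2.32 ± 0.101 (adjusted p = 3.94e-13). Per kb, CCN2 was 5.42 ± 0.0749% of the summed CCN1 and CCN2 level in S2-007, 25.9 ± 0.239% in S2-020 and 6.68 ± 0.884% in S2-028. This share is a ratio within a library and does not depend on the scaling between libraries. LINC01013, which lies opposite 11.89% of the exon bases of CCN2, had between 11 and 36 counts per library.

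The bases before the start of CCN2 and YAP1 are shown because, of the 7 genes with a promoter in the RefSeq table used here, they were the ones that held the core TEAD motif CATTCC on either strand (as GGAATG on the strand shown). The motif was searched on both strands over the 250 bases before each listed start, and 11.9% of all 35116 promoters of the table held it there. WWTR1, TEAD2 and VGLL4 had more than 1 listed start, while the share is per promoter. CCN2 held it 3 times, at bases -169 to -164, -104 to -99 and -95 to -90 counted from the start of the gene, and YAP1 held it 1 time, at bases -162 to -157. WWTR1, TEAD2, TEAD3, VGLL3 and VGLL4 had no match at any listed start. The listed starts of WWTR1 and VGLL4 lie inside the gene spans given above, so the bases before the 5′ ends of those spans were not searched. TEAD1, TEAD4 and CCN1 had no promoter in that table and were not searched. The AP-1 motif TGANTCA, in which N is any base, was found in 6.57% of all promoters and in none of the 7 genes. Capitals mark the TEAD motif, each sequence runs 5′ to 3′ on the strand of the gene, and both are RefSeq sequence of GRCh38.p14 (CCN2 at chr6:131951373-131951622, minus strand, and YAP1 at chr11:102110197-102110446, plus strand).
CCN2: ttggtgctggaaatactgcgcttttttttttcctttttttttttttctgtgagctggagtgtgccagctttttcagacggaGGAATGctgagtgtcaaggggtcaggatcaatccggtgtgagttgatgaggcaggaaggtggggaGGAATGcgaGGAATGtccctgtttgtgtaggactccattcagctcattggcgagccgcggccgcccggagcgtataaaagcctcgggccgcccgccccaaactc
YAP1: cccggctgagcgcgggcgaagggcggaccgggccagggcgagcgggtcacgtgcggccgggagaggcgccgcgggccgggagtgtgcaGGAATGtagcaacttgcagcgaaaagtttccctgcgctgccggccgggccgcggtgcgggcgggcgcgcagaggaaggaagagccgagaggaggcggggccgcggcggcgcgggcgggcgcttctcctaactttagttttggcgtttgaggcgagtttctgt

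A match of letters describes the sequence and does not show binding. The line with the highest CCN2 level, S2-020, was also that with the highest YAP1, TEAD4 and summed TEAD levels. YAP1 was under the fold threshold there, and the WWTR1 and TEAD1 libraries of S2-020 overlapped with those of S2-028. TEAD3 and VGLL3 were lowest in S2-020. The part of these genes in the CCN2 level was not tested. Among the relatives of the CCN genes, CCN3 was low, at 0.836 ± 0.128 CPM in S2-007, 0.320 ± 0.208 in S2-020 and 2.93 ± 0.713 in S2-028. Its log2 fold change was 1.83 ± 0.260 (adjusted p = 7.25e-06) in S2-028 against S2-007, 3.15 ± 0.367 (adjusted p = 7.07e-07) against S2-020 and -1.37 ± 0.449 (adjusted p = 0.0194) in S2-020 against S2-007, so its order was S2-028, S2-007 and S2-020. In S2-020 against S2-007 the CCN3 call was lost without S2-007 replicate 2, S2-020 replicate 1 or S2-020 replicate 3, and the value nearest to 0 with a library left out was -1.01. CCN4, CCN5 and CCN6 stayed under 1 CPM in every library, and none was called in the comparisons in which it was tested.

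Beyond CCN1 and CCN2, 20 further genes that are widely used as a readout of YAP and TAZ were examined as a list, and all passed the filter in each comparison. In S2-020 against S2-007, 12 of the 20 were called higher and 3 lower, against 9.57% and 12.1% of all genes tested. The list had a median of 0.86. The smallest adjusted p were those of CCDC80, a matrix protein, IGFBP3, a binding protein of insulin-like growth factors, and PTPN14 and AMOTL2, which restrain YAP. Their log2 fold changes were 4.69 ± 0.116, -2.93 ± 0.0823, 1.76 ± 0.0582 and 1.76 ± 0.0612. IGFBP3 was the one of these that fell, and F3, the gene of tissue factor, and MYOF fell as well, with -2.72 and -0.79.

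In S2-028 against S2-007 the list moved both ways, with 7 genes called higher and 4 lower, against 10.2% and 8.19% of all genes tested. Its median log2 fold change was 0.12. AXL, a receptor tyrosine kinase, rose from 141 ± 9.31 to 514 ± 40.2 CPM, which is 1.89 ± 0.0680 on the log2 scale. TGFB2, a ligand of the TGF-beta family, and FJX1 rose by 2.79 ± 0.149 and 1.44 ± 0.0946 on the log2 scale, whereas IGFBP3 fell from 84.2 ± 8.00 to 10.98 ± 1.99 CPM. The 4 genes called lower in S2-028 were IGFBP3, F3, GADD45A and DOCK5. In S2-028 against S2-020, 3 genes were called higher and 7 lower, against 12.1% and 10.1% of all genes tested. The 3 called higher were F3, TGFB2 and MYOF, with log2 fold changes of 1.95, 0.87 and 0.67. CCDC80 had 64.5, 58.3 and 51.1 CPM in S2-020 and 3.79, 4.04 and 3.75 in S2-028, which is -3.91 ± 0.101 on the log2 scale. PTPN14, AMOTL2 and LATS2 were also lower in S2-028, with log2 fold changes of -1.95 ± 0.0622, -1.31 ± 0.0634 and -1.46 ± 0.0859. CCDC80, PTPN14, AMOTL2 and LATS2 were thus higher in S2-020 than in S2-028, as CCN2 was, whereas AXL and FJX1, like CCN1, were not called between those lines. Their log2 fold changes were 0.42 ± 0.0605 (adjusted p = 1.05e-05), which was under the fold threshold, and 0.10 with a 95% interval of -0.06 to 0.25.

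**Figure D4:**
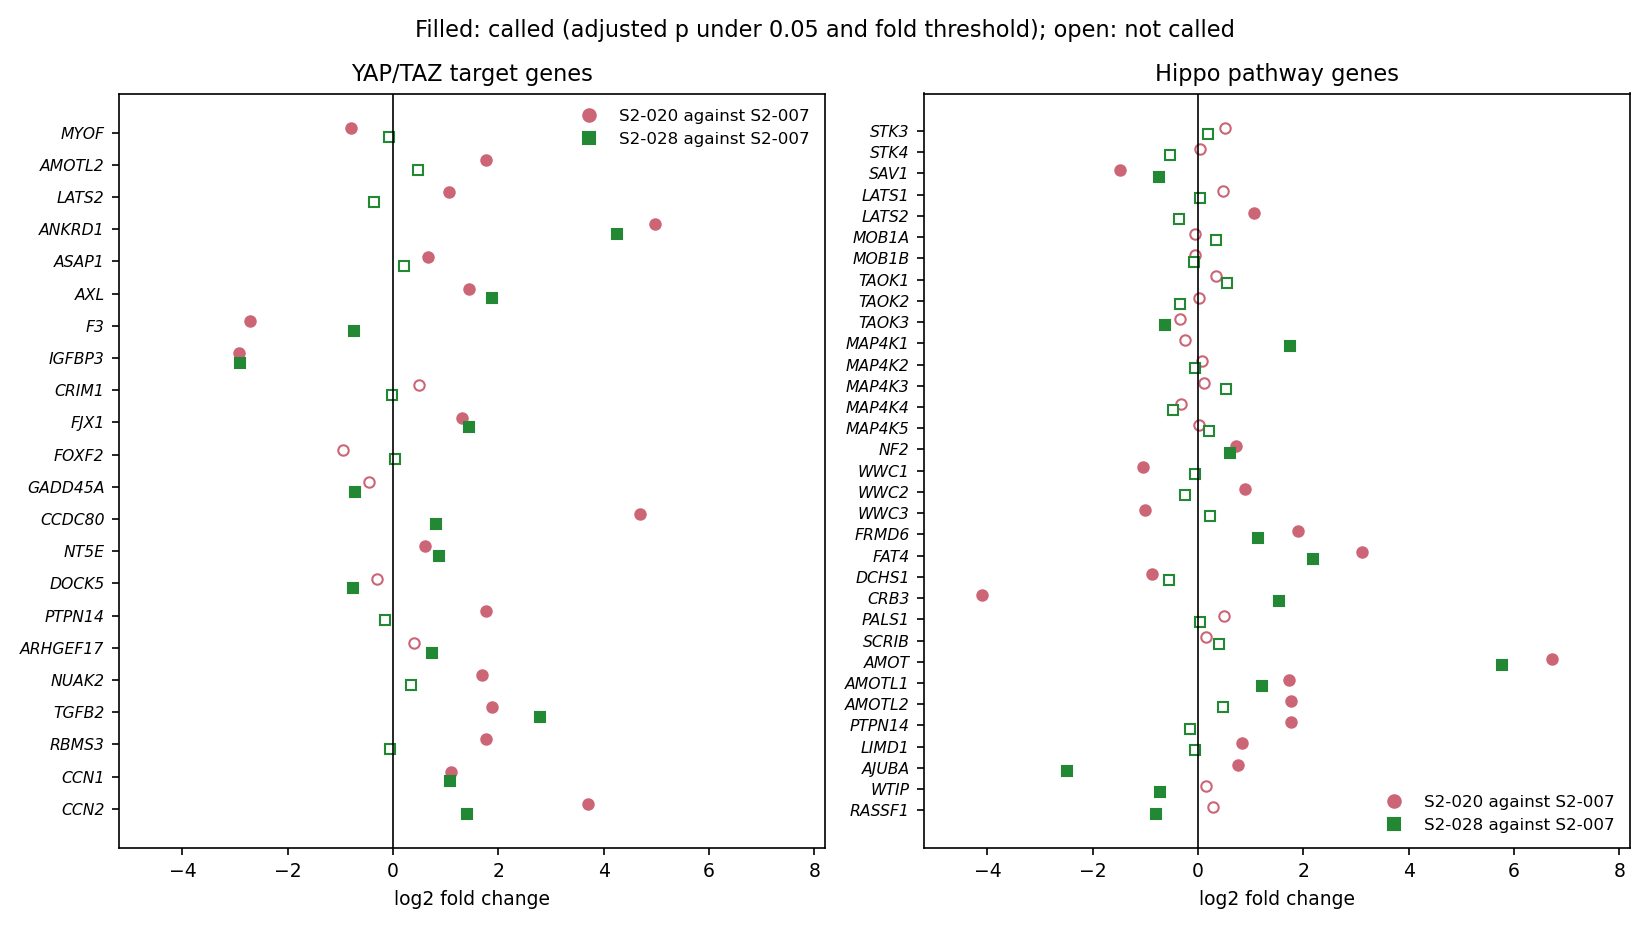
Log2 fold change against S2-007 of the YAP/TAZ target genes with CCN1 and CCN2 (left) and of the Hippo pathway genes (right), with red circles for S2-020 and green squares for S2-028, filled where called. Both lines share the S2-007 libraries. AMOT lies farthest to the right, and CRB3 lies to the left for S2-020 and to the right for S2-028.

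The upstream pathway was examined as a list of 33 genes, all of which passed the filter, and 3 of them (LATS2, AMOTL2 and PTPN14) are also on the target list. Of the 15 kinases and their subunits, 3 were called in S2-028 and 2 in S2-020 against S2-007. These are 20.00% and 13.3% of the group, close to or under the 18.4% and 21.6% of all genes tested, and the medians were -0.05 and 0.02. An adjusted p under 0.05 at any fold was reached by 11 and 7 of the 15, against 33.9% and 40.2% of all genes. SAV1, the scaffold of the MST kinases, was called lower in both, at -0.75 ± 0.0739 (adjusted p = 4.48e-08) and -1.49 ± 0.0730 (adjusted p = 1.39e-12). LATS2 was called higher in S2-020, at 1.06 ± 0.0755 (adjusted p = 4.57e-10), and had -0.36 in S2-028.

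Of the 10 scaffolds and junction proteins, 4 were called higher and none lower in S2-028 against S2-007, and 4 were called higher and 4 lower in S2-020. Of all genes tested, 10.2% were higher and 8.19% lower in S2-028, and 9.57% and 12.1% in S2-020. FAT4, a large protocadherin, rose from 7.12 ± 0.158 CPM in S2-007 to 61.7 ± 1.09 in S2-020 and 31.99 ± 1.89 in S2-028. CRB3, the Crumbs protein of apical membranes, had 0.346, 0.499 and 0.276 CPM in S2-020, 6.26, 7.38 and 5.81 in S2-007 and 21.2, 16.2 and 18.04 in S2-028, with a log2 fold change of 5.59 ± 0.189 (adjusted p = 9.51e-15) in S2-028 against S2-020. The order of the lines for CRB3 was that of VGLL3, lowest in S2-020 and highest in S2-028.

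The last 8 genes of the list were the angiomotin genes AMOT, AMOTL1 and AMOTL2, PTPN14, the LIM protein genes AJUBA, LIMD1 and WTIP, and RASSF1, which acts through the MST kinases. Of these, 6 were called higher and none lower in S2-020 against S2-007, while 2 were called higher and 3 lower in S2-028, beside the shares of all genes just given. In S2-028 against S2-020, 7 of the 8 were called lower and none higher, where 10.1% of all genes tested were called lower and 12.1% higher. AMOT, the gene of angiomotin, which retains YAP in the cytoplasm, was nearly absent from S2-007. It had 1.72, 2.19 and 1.33 CPM there, 180.1, 194 and 181 in S2-020 and 91.99, 102 and 87.9 in S2-028, with log2 fold changes of 6.73 ± 0.106 (adjusted p = 6.17e-20) and 5.78 ± 0.123 (adjusted p = 1.04e-18). Its relative AMOTL1 rose as well, by 1.72 ± 0.0607 and 1.22 ± 0.0578 on the log2 scale. AJUBA, a LIM protein that inhibits LATS kinases, went apart, at 46.3 ± 7.00 CPM in S2-007, 77.8 ± 9.52 in S2-020 and 8.09 ± 0.741 in S2-028. Its log2 fold change was -2.49 ± 0.109 (adjusted p = 9.94e-14) in S2-028 against S2-007. Over the whole list the calls were 12 of 33 genes in S2-028 against S2-007, 16 in S2-020 against S2-007 and 17 in S2-028 against S2-020, which is 36.4%, 48.5% and 51.5% against the shares of all genes given above.

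AP-1 factors of the FOS and JUN families often bind the same enhancers as TEAD factors. All 7 subunits passed the filter, and in S2-028 against S2-020 all 7 were called, 5 higher and 2 lower in S2-028, where 22.2% of all genes tested were called. In S2-028 against S2-007 4 of the 7 were called, 3 higher and 1 lower (18.4% of all genes called). In S2-020 against S2-007 5 were called (21.6% of all genes), with JUN higher and FOSL2, FOSL1, JUNB and FOS lower. JUN had 44.7, 49.7 and 57.03 CPM in S2-007, 327, 323 and 300.5 in S2-020 and 138, 131 and 143 in S2-028. The lines did not overlap, and their order was that of CCN2. JUN rose by 2.65 ± 0.0734 in S2-020 and by 1.47 ± 0.0765 in S2-028 on the log2 scale, each against S2-007. FOSL1, the AP-1 subunit with the most reads, went the other way, at 404 ± 7.78 CPM in S2-020, 805 ± 77.01 in S2-007 and 883 ± 102 in S2-028. FOSL1 was 1.99-fold lower in S2-020 than in S2-007 (adjusted p = 2.22e-11). FOSL2 was also lowest in S2-020 and was called higher in S2-028 against S2-007, at 0.66 ± 0.0767 (adjusted p = 4.32e-07). JUND was called lower in S2-028 against S2-007, at -0.86 ± 0.0779 (adjusted p = 1.10e-08).

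The genes on either side of each of the 10 genes were compared with it, as a description of whether a stretch of the chromosome moved together. In S2-020 against S2-007, the 50 tested genes nearest to VGLL3 had a median log2 fold change of 0.02 while VGLL3 had -4.14. These 50 genes reached as far as 11.88 Mb from VGLL3, against 1.49 Mb for TEAD3 and 3.28 Mb for CCN2. The VGLL3 median therefore describes a wide stretch and not the genes close to it. For TEAD3 the neighbours had 0.08 against -1.53, for TEAD4 0.16 against 0.90, for CCN1 -0.09 against 1.10 and for CCN2 -0.12 against 3.70. These genes stood apart from the middle of their neighbours. WWTR1 did not in S2-028 against S2-007, where its neighbours had a median of 0.40, with 34 of 50 above 0, and WWTR1 had 0.53. For VGLL3 the neighbours had 0.36 in that comparison against 0.46, and for VGLL4 0.39 against 0.19. The part of such neighbourhoods in the member genes was not tested. CHMP2B, an ESCRT gene whose midpoint lies 0.277 Mb from that of VGLL3, was singled out after its values were seen. It had 13.1, 12.4 and 14.7 CPM in S2-020, 75.9, 87.1 and 86.6 in S2-007 and 58.1, 53.1 and 60.5 in S2-028, with a log2 fold change of -2.64 ± 0.0786 (adjusted p = 6.27e-16) in S2-020 against S2-007.

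**Figure D5:**
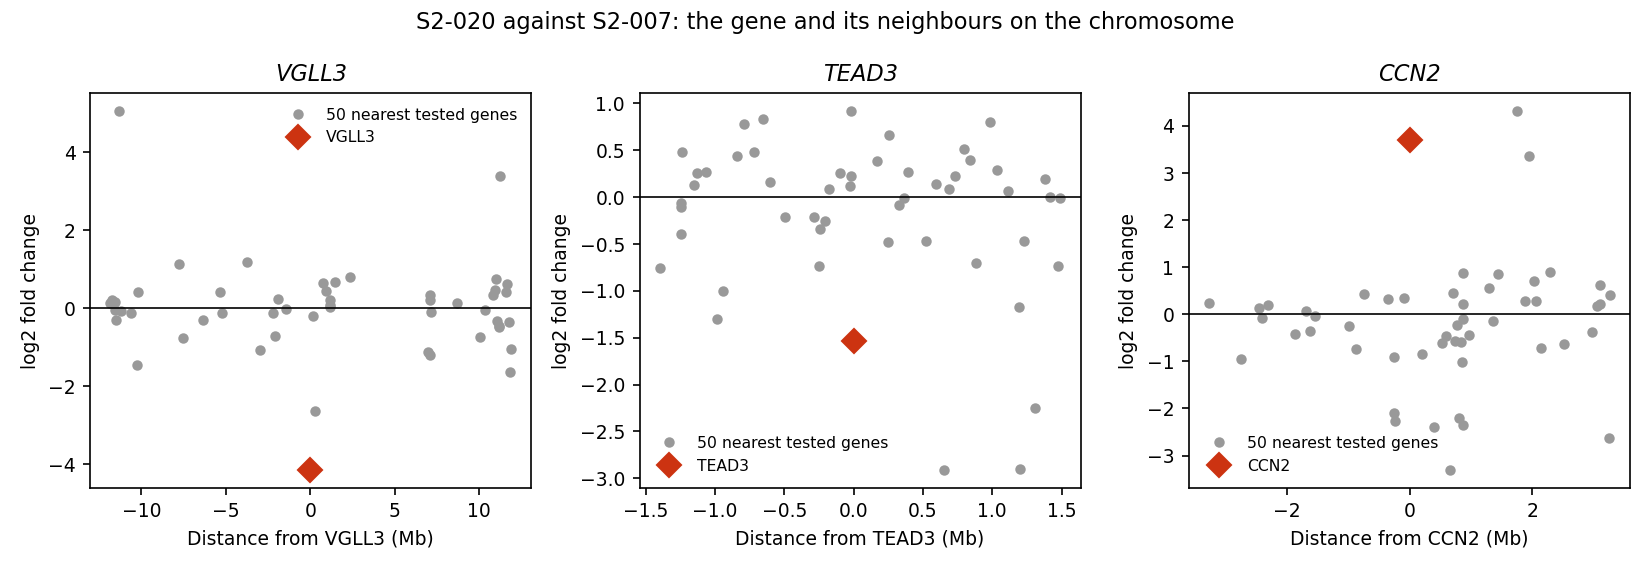
Log2 fold change in S2-020 against S2-007 of VGLL3, TEAD3 and CCN2 (red) and of the 50 tested genes nearest to each (grey), against the distance between gene midpoints in Mb. The 50 neighbours have medians of 0.02, 0.08 and -0.12. Of the 20 genes nearest to CCN2, 5 lie above 0, and their median is -0.61.

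Genes with the most similar pattern over the 9 libraries were sought for VGLL3, CCN2 and TEAD3, the members with the widest range of line means. Likeness was the root mean square difference of log2 CPM, each gene being centred on its own mean, among the 10524 genes whose mean log2 CPM reached 3. The genes nearest to VGLL3 were SYK, a tyrosine kinase, SPINT1, an inhibitor of serine proteases, and JUP, the gene of plakoglobin, at 0.135, 0.237 and 0.248. SYK was at 37.99 ± 1.78 CPM in S2-007, 2.36 ± 0.302 in S2-020 and 53.4 ± 1.31 in S2-028. The genes nearest to CCN2 were PHLDB2, LPCAT2 and TFAP2C, at 0.153, 0.239 and 0.256, and PHLDB2 was at 13.4 ± 1.06, 151 ± 4.97 and 34.6 ± 1.27 CPM in the same order of lines. Those nearest to TEAD3 were CCDC120, ANKH and GSTO2, at 0.129, 0.141 and 0.146. The 9 libraries form 3 lines, so the likeness is mainly one of 3 line means.

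How far reads of the 10 genes could be split with other genes was read from GENCODE. TEAD1 and CCN1 shared no word of 31 bases with a transcript of another gene and had no exon base under one. TEAD3, TEAD4 and VGLL3 shared between 0.95% and 1.55% of their words. VGLL4 shared the most, 41.84% of its words, mainly with ATG7. For YAP1, WWTR1, TEAD2 and CCN2, between 9.05% and 11.89% of the exon bases lay opposite another gene, and of these genes the partners WWTR1-AS1, CD37 and LINC01013 had at most 95 counts in any library. YAP1 shared 13.18% of its words, mainly with an unnamed long non-coding RNA gene that was not matched to the count table, so no value is given for it.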

How the data were processed

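RNA of the 3 lines was sequenced as 3 libraries each, and each library was assigned to its line by its own label. The submitters' processing notes name Trimmomatic 0.39, BWA 0.7.17, SAMtools 1.12 and edgeR 3.16.5. The authors deposited whole-number counts of the reads mapped to each gene, without normalization. The authors also deposited 18 columns of normalized signal made from those counts, which were not used here. The libraries were strand-specific, but the counting tool and its treatment of strand and of overlapping genes are not given in the sources used here. Another 2 lines hold no gene identifier and were left out throughout.

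The fits used edgeR 4.0.16 under R 4.3.3 (filterByExpr at 10 counts and a total of 15, TMM, glmQLFit and glmQLFTest, Benjamini-Hochberg adjustment), and each fit held only the 6 libraries it compared. Logarithms of CPM used a prior count of 2. Counts of 3 or fewer were taken as the floor, which covers counting error only. The pipeline was tested on simulated data, once per comparison. Of genes simulated at a log2 fold change of 1 in either direction, 51.5% to 56.9% were called in the right direction. At a log2 fold change of 2 this was 75.2% to 83.7%. Between 4 and 9 unchanged genes were called. Alternatives were another normalization, no filter and a stricter one, a likelihood ratio test, DESeq2 1.42.0, all 9 libraries in one fit, leaving out each library, and the replicate number as a block. Libraries of one line differed by more than counting noise, with a chi-square per gene of at least 8.41. Of the gene identifiers, 42497 (99.5%) matched RefSeq, whose GRCh38.p14 positions and promoters were used. Transcript lengths and overlaps came from GENCODE.

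Members and lists were chosen with earlier results of these data known. Of each further list, at most 4 called genes per comparison were named, those with the smallest adjusted p, and a count of 5 or fewer could be named in full.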

Additional observations from a re-analysis of the deposited data

How the results depend on the processing

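The calls of the 10 genes were unchanged under all 39 alternatives run over the 3 comparisons. The number of all genes called was 4858 in S2-028 against S2-007, 5769 in S2-020 against S2-007 and 5788 in S2-028 against S2-020, and stayed within 1.5 times of that under each alternative, with 4502 to 5141, 5269 to 6068 and 5294 to 6074. Same-numbered libraries of different lines did not deviate together (correlations between -0.0217 and 0.014 over 9 pairs), and the replicate block gave 4865, 5650 and 5716 genes called and no other call for the 10 genes. Between S2-028 and S2-020, leaving out each library in turn moved log2 fold changes that were not called across 0, with -0.06 to 0.04 for WWTR1, -0.02 to 0.06 for TEAD1 and -0.15 to 0.03 for CCN1. Of the relatives of the VGLL and CCN families, 2 of the 4 tested were called in S2-028 against S2-007 (18.4% of all genes). In S2-028 against S2-020, 2 of 3 were called (22.2%). VGLL1 passed the filter in both only through its S2-028 counts, and relatives with too few reads in both lines were not tested. These counts therefore cannot be weighed against the shares of all genes. With at least 10 counts required in every library they were 1 and 1, since VGLL1 is then not tested. In S2-020 against S2-007, 1 of 4 was called (21.6% of all genes), 2 with all 9 libraries in one fit, and 0 to 1 when each library was left out. The cause was not tested. With the 20 nearest genes in place of 50, the medians of neighbouring genes moved for 20 of 30 values, for WWTR1 to 0.51 in S2-028 and 0.54 in S2-020 against S2-007, and for CCN2 to -0.61 in S2-020.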
